A study of Mus musculus with 60 samples.

Results

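The Ikaros family of zinc finger transcription factors was followed through T cell activation by way of its 5 genes, Ikzf1 (Ikaros), Ikzf2 (Helios), Ikzf3 (Aiolos), Ikzf4 (Eos) and Ikzf5 (Pegasus). They were taken as the rows of the deposited table whose Ensembl identifier maps to one of these symbols, and all 5 were found among 55414 genes. All 5 passed the filter on low counts in every comparison. The cells were OT-I T cells, CD8 cells that carry a transgenic receptor for an ovalbumin peptide. They were purified as naive cells by negative selection from spleens of mice of the diabetes-prone NOD strain, and were either wild type for Sh2b3 or Sh2b3-/-. Sh2b3 encodes an adaptor protein that restrains cytokine receptor signalling, and the comparison of genotypes asks what its loss changes in these cells.

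Unstimulated cells at 0 h gave 11 wild-type and 11 Sh2b3-/- libraries. Cells stimulated with plate-bound anti-CD3 at 10 µg/mL and soluble anti-CD28 at 5 µg/mL gave 5 libraries per genotype at 2 h, 5 at 6 h and 5 at 24 h. A further 4 per genotype came from cells kept for 24 h in the same stimulus with a blocking anti-IL-2 antibody at 10 µg/mL. All cells of all 10 groups therefore shared the NOD background and the OT-I receptor. Age and sex of the mice, and whether libraries of a group came from separate mice, were not given in the sources used here, so p-values measure the spread between these libraries, which may be technical.

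Ikaros proteins bind DNA through N-terminal zinc fingers and pair with each other through C-terminal ones. They recruit chromatin complexes, above all the NuRD remodelling and deacetylase complex, and can repress or activate genes. Ikaros and Aiolos are known for their part in lymphocyte development, and Ikaros also restrains T cell activation and the transcription of Il2. Helios and Eos are best known in regulatory T cells, while Helios is also induced in other activated T cells. Pegasus is the most distant member and recognises another DNA sequence.

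On the reference annotation, Ikzf1 lies on the plus strand and Ikzf3 on the minus strand of chromosome 11. Ikzf2 lies on chromosome 1, Ikzf4 on chromosome 10 and Ikzf5 on chromosome 7, each on the minus strand. RefSeq promoter windows were at hand for 2 of the 5 members, Ikzf1 with a pair of starts and Ikzf5 with 1. The Ikzf1 windows are printed because Ikzf1 carried most of the family's RNA. Each run holds the 250 bases before a RefSeq start on the plus strand of GRCm38.p6, 5′ to 3′, with capitals marking every match on either strand to GGGAA, the core letters that Ikaros zinc fingers recognise.
Ikzf1 upstream start, chr11:11685675-11685924: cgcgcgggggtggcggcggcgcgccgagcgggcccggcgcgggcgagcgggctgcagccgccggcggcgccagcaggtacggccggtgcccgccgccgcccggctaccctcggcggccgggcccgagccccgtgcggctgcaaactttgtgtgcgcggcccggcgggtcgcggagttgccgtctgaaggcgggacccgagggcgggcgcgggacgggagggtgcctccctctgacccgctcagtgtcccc
Ikzf1 downstream start, chr11:11689927-11690176: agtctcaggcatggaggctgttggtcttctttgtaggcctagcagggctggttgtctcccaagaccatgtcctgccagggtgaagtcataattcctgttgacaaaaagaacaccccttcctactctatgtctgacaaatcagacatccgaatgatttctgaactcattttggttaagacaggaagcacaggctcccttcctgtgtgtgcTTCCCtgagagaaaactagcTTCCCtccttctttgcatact
The upstream window was 82% G and C and held no GGGAA match, and the downstream window was 47.6% G and C and held 2. The Ikzf5 window held 1. Of 32851 RefSeq windows of the same length, 56.2% held at least 1 match to these letters, so a match is common and describes the sequence only. The STAT letters TTCNNNGAA were in neither Ikzf1 window and once in the Ikzf5 window, against 7.02% of all windows.

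The libraries held between 13987029 and 35476519 counted reads, with a median of 17994613. Numbers in the library names fall into 4 runs, called sets A to D here. The labels say nothing of what these runs are. Set A held 5 libraries per genotype at 0, 2 and 6 h, set B held 2 per genotype at 0 h and at 24 h, set C held 4 at 0 h and 3 at 24 h, and set D held all 8 anti-IL-2 libraries and no others. The deleted gene Sh2b3 was lower in Sh2b3-/- cells in each of the 5 genotype comparisons, by log2 differences from -2.77 to -2.25. Cd8a stood at 365 to 1585 CPM (scaled counts per 1000000 reads) in all 60 libraries, while Cd4 was at 0 in 24 of them and Foxp3 in 9. In earlier results of these data 3 Sh2b3-/- libraries stood apart from their groups: replicate 10 at 0 h, replicate 3 at 2 h and replicate 3 at 6 h, with replicates numbered in accession order. The main values of the comparisons they enter are given with and without them.

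Ikzf1 was by far the most abundant member. In CPM per kilobase of annotated exon, a scale on which genes can be compared, Ikzf1 held 68.0% to 86.1% of the family's summed level over the 10 groups. Ikzf3 held 9.85% to 21.6%, Ikzf2 2.33% to 13.8%, Ikzf4 0.303% to 2.61% and Ikzf5 0.304% to 0.624%. Ikzf5 was the lowest in 9 of the 10 groups and Ikzf4 in the other, wild type at 0 h, where they held 0.346% and 0.303%. The share of Ikzf1 was lowest at 6 h, when those of Ikzf3 and Ikzf4 were at or near their highest. Exon lengths came from an annotation of an older build than the one the reads were aligned to, so these shares are approximate. Exons of other genes cover 84.5% of the Ikzf5 length, and how reads there were counted was not given. The share of Ikzf5 and its order relative to Ikzf4 are therefore uncertain.

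**Figure D1:**
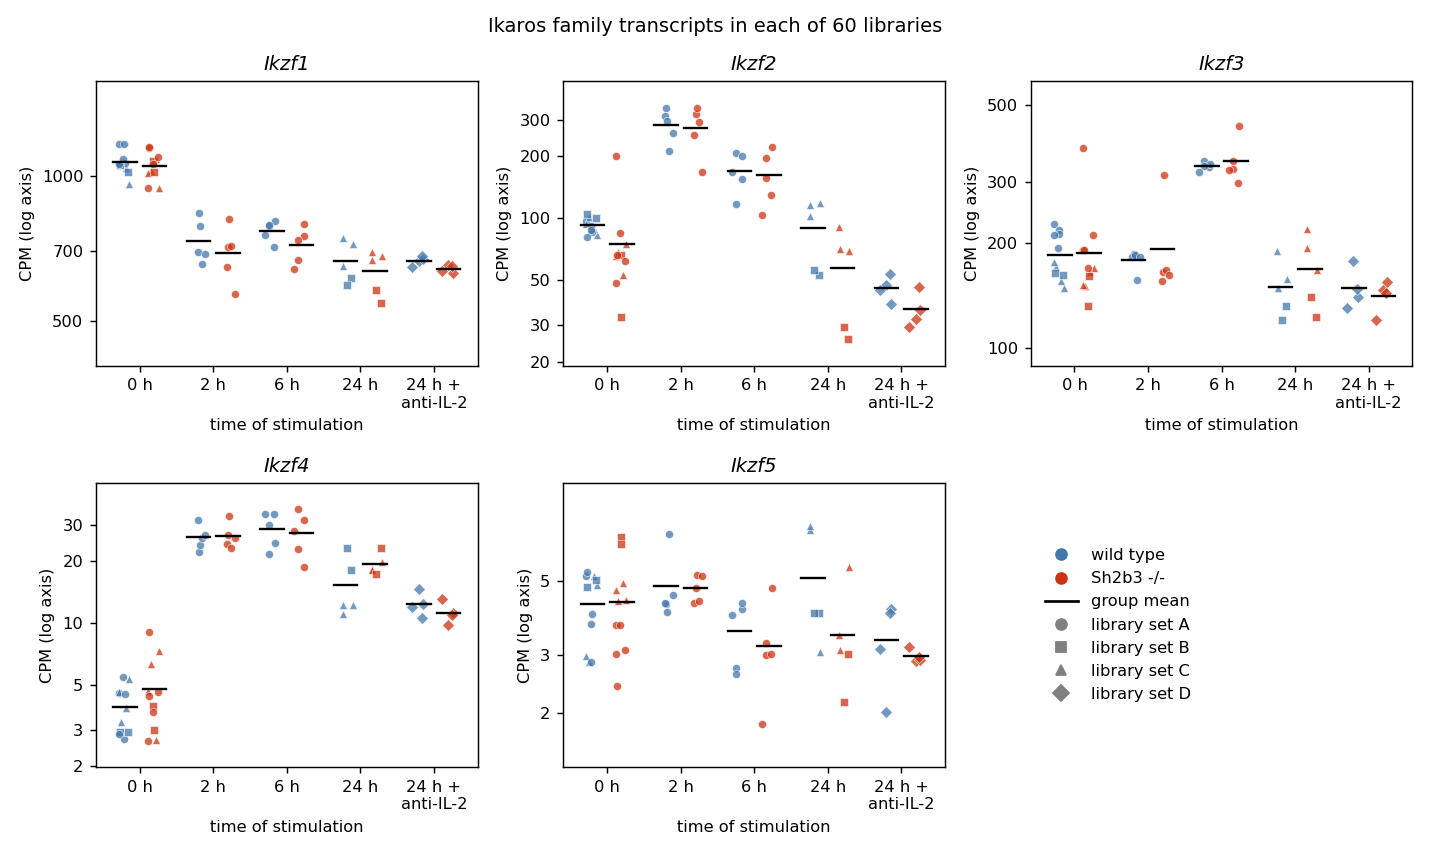
Level of each Ikaros family gene in each of the 60 libraries, in CPM on a log axis, against the time of stimulation. Points are libraries, blue for wild type and red for Sh2b3 -/-, with the shape giving the library set, and black bars are group means. Ikzf1 was highest at 0 h, Ikzf2 at 2 h and Ikzf3 at 6 h, and Ikzf4 was lowest at 0 h.

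After stimulation 4 of the 5 genes differed from 0 h, and both genotypes had the same members called in the same direction at each time. No group after 0 h went without the stimulus, so the stimulus and time in culture cannot be told apart. Against 0 h, Ikzf4 rose at every time, Ikzf2 rose at 2 and 6 h and was not called at 24 h, Ikzf3 rose at 6 h, and Ikzf1 fell at every time. These comparisons share the 0 h libraries of their genotype. A call is an adjusted p under 0.05 in edgeR's quasi-likelihood test over all genes tested, and every adjusted p below is from that test unless another tool is named. The comparisons over time had library set as a term. Between 0 and 2 h, 3 of 5 members were called in either genotype, against 49.5% of all genes in wild-type and 50.4% in Sh2b3-/- cells. Between 0 and 6 h the count was 4 of 5, against 46.2% and 45.7%, and between 0 and 24 h it was 2 of 5, against 57.3% and 60.8%. These counts are near what all genes show and are no result about the family. Without the 3 libraries that stood apart, every call of a member over time remained in both genotypes, and Ikzf3 at 2 h was added.

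Ikzf4 made the largest rise from 0 h of the family. At 0 h it stood at 2.701 to 5.477 CPM in wild-type libraries, with a median of 3.84, and at 2.67 to 9.01 CPM in Sh2b3-/- libraries, with a median of 4.42. The 5 wild-type libraries read 22.3, 24.2, 26.1, 27.0 and 31.9 CPM at 2 h, and the 5 Sh2b3-/- libraries 23.3, 24.3, 26.0, 26.9 and 33.3 CPM. Every 2 h library was therefore above every 0 h library. The log2 rise at 2 h was 2.69 ± 0.22 (SE, adjusted p = 5.33e-15) in wild-type and 2.43 ± 0.22 (adjusted p = 9.77e-14) in Sh2b3-/- cells. At 6 h it was 2.87 ± 0.22 (adjusted p = 9.34e-16) and 2.53 ± 0.22 (adjusted p = 5.17e-14). At 24 h it was 2.02 ± 0.22 (adjusted p = 2.26e-11) and 2.09 ± 0.21 (adjusted p = 2.72e-12), with the levels described by library set below. Without the 3 libraries that stood apart the rises in Sh2b3-/- cells were 2.58 ± 0.22, 2.72 ± 0.22 and 2.16 ± 0.20. Ranked by group mean, the 8 stimulated groups ran from 28.9 ± 5.62 CPM (SD, n = 5, wild type at 6 h) to 11.2 ± 1.37 CPM (SD, n = 4, Sh2b3-/- with anti-IL-2), and neighbours among them overlapped. Both 0 h groups lay below all 8 without overlap.

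Ikzf2 showed a pulse. At 0 h the wild-type libraries lay between 80.8 and 104.8 CPM with a median of 91.7. At 2 h they read 210.3, 259.0, 294.3, 312.2 and 342.1 CPM and at 6 h 116.7, 154.7, 167.4, 199.4 and 205.3 CPM. The 2 h libraries all exceeded the 6 h libraries, and these all exceeded the 0 h libraries. The log2 rise was 1.44 ± 0.26 (adjusted p = 1.01e-05) at 2 h and 0.73 ± 0.26 (adjusted p = 0.0204) at 6 h, and the 24 h value was 0.00014 ± 0.27 (adjusted p = 0.9999). In Sh2b3-/- cells the 2 h libraries read 166.0, 252.3, 290.6, 320.5 and 342.2 CPM and the 6 h libraries 103.0, 128.7, 156.9, 194.4 and 219.8 CPM, so these times overlapped, and 2 of the 5 6 h libraries exceeded the lowest 2 h library. The rise was 1.75 ± 0.25 (adjusted p = 9.74e-08) at 2 h and 1.03 ± 0.25 (adjusted p = 7.21e-04) at 6 h, and the 24 h value was -0.28 ± 0.27 (adjusted p = 0.367). Without the 3 libraries that stood apart the Sh2b3-/- rises were 2.06 ± 0.21 (adjusted p = 6.73e-11) and 1.304 ± 0.22 (adjusted p = 3.21e-06), and the wild-type rises, which share the set terms, were 1.61 ± 0.20 and 0.91 ± 0.20. The wild-type call at 6 h was lost without replicate 1 (adjusted p = 0.0571) or replicate 2 (adjusted p = 0.0517) at 6 h.

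The 24 h values of Ikzf2 averaged sets that moved in opposite directions. Wild-type libraries of set B went from 100.2 and 104.8 CPM unstimulated to 52.9 and 55.7 CPM, while those of set C went from a range of 82.8 to 101.4 CPM to one of 102.2 to 118.5 CPM. The times did not overlap in either set, with 24 h lower in set B and higher in set C. In Sh2b3-/- cells the set means went from 49.6 to 27.6 CPM in set B, without overlap, and from 65.2 to 76.5 CPM in set C, with overlap. These changes were not tested within single sets. Over both sets the 24 h value in Sh2b3-/- cells was called by edgeR with no filter on low counts (-0.26 ± 0.10, adjusted p = 0.0394). The main fit gave a like value with a larger SE, -0.28 ± 0.27.

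From 2 to 6 h, 2 of 5 members were called in either genotype, Ikzf2 and Ikzf3, against 31.7% of all genes in wild-type and 31.8% in Sh2b3-/- cells. The fall of Ikzf2 was -0.71 ± 0.28 (adjusted p = 0.0495) in wild-type and -0.72 ± 0.28 (adjusted p = 0.0458) in Sh2b3-/- cells. Both calls sat at the threshold. The call was lost in 8 of the 10 fits that left out a wild-type library, with adjusted p up to 0.137, and in 7 of the 10 that left out a Sh2b3-/- library, with adjusted p up to 0.134, while the log2 fall stayed between -0.85 and -0.60. Without all 3 libraries that stood apart it was -0.71 ± 0.22 (adjusted p = 0.00939) and -0.76 ± 0.24 (adjusted p = 0.0142).

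Ikzf3 rose late. Wild-type libraries stood at 148.1 to 226.6 CPM (median 176.7) at 0 h and at 156.5, 181.9, 182.9, 185.3 and 186.3 CPM at 2 h. At 6 h they read 320.3, 330.3, 333.8, 337.5 and 345.7 CPM, above every wild-type library of any other time. The log2 rise from 0 to 6 h was 0.63 ± 0.14 (adjusted p = 1.35e-04), and that from 2 to 6 h was 0.94 ± 0.15 (adjusted p = 1.82e-06). In Sh2b3-/- cells the 6 h libraries read 297.6, 325.0, 327.1, 343.8 and 434.0 CPM. The rises were 0.69 ± 0.14 (adjusted p = 3.35e-05) and 0.89 ± 0.15 (adjusted p = 4.29e-06), and without the 3 libraries that stood apart 0.79 ± 0.084 (adjusted p = 3.00e-11) and 1.05 ± 0.094 (adjusted p = 1.08e-12). At 24 h the differences from 0 h were -0.078 ± 0.13 and 0.11 ± 0.14, and neither was called.

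The 2 h value of Ikzf3 turned on the libraries that stood apart. All libraries included, the difference from 0 h was -0.31 ± 0.14 (adjusted p = 0.0596) in wild-type and -0.21 ± 0.14 (adjusted p = 0.218) in Sh2b3-/- cells. Without the 3 libraries it was -0.23 ± 0.079 (adjusted p = 0.0121) and -0.26 ± 0.087 (adjusted p = 0.00943). Leaving out replicate 3 at 2 h alone gave -0.45 ± 0.12 (adjusted p = 0.00195) in Sh2b3-/- cells. Replicate 10 at 0 h read 375.8 CPM against 131.7 to 210.5 in the other 10 Sh2b3-/- libraries, replicate 3 at 2 h read 314.3 against 155.4 to 167.0, and replicate 3 at 6 h read 434.0 against 297.6 to 343.8. These 3 libraries also had the highest summed level of 10 genes of memory-phenotype CD8 T cells in their groups, at 1580, 1210 and 1173 CPM against 891 to 1317, 691 to 1023 and 616 to 867 in the others. Their sums over 7 gamma delta T cell genes were also the highest, at 731, 408 and 403 CPM against at most 574, 224 and 217. So were those over 10 genes of CD4 and regulatory T cells, at 128, 172 and 195 CPM against at most 72.4, 138 and 123. Little of that was Cd4 or Foxp3, which stayed at or below 1.77 and 3.90 CPM in all 60 libraries. The sums of these 3 libraries over 10 B cell genes were the lowest, at 663, 176 and 191 CPM against at least 747, 276 and 298. The part of these in the levels of Ikzf3 and Ikzf2 was not tested.

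The relative level of Ikzf1 fell after stimulation and stayed below that at 0 h. CPM is relative to the other RNA of a library, so RNA per cell was not measured for any member. At 0 h the libraries lay between 961 and 1163 CPM (median 1061) in wild-type and between 945 and 1146 CPM (median 1059) in Sh2b3-/- cells. No stimulated library of either genotype exceeded 839 CPM, so the 0 h groups lay above all others without overlap. The log2 fall in wild-type cells was -0.60 ± 0.074 at 2 h (adjusted p = 8.27e-10), -0.49 ± 0.073 at 6 h (adjusted p = 1.60e-07) and -0.64 ± 0.072 at 24 h (adjusted p = 5.78e-11). In Sh2b3-/- cells it was -0.66 ± 0.074 (adjusted p = 4.82e-11), -0.55 ± 0.074 (adjusted p = 8.48e-09) and -0.66 ± 0.072 (adjusted p = 1.84e-11). Group means spanned 1066 CPM (wild type at 0 h) to 635 CPM (Sh2b3-/- at 24 h), a ratio of 1.68. Those of Ikzf2 spanned a ratio of 7.90, from 284 to 35.9 CPM, and all its neighbouring groups in that order overlapped. The ratio for Ikzf4 was 7.40.

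Ikzf5 stayed low, between 1.85 and 7.36 CPM in all 60 libraries, and was not called at any time with all libraries included. It was called lower in Sh2b3-/- cells at 24 h without replicate 1 of that time (-0.69, adjusted p = 0.0186), and from 2 to 6 h without replicate 3 at 6 h (-0.72, adjusted p = 0.0490). It was called higher in them at 2 h within set A alone (0.56, adjusted p = 0.0408). Its group means ran from 5.12 ± 1.99 CPM (SD, n = 5, wild type at 24 h) to 2.98 ± 0.14 CPM (SD, n = 4, Sh2b3-/- with anti-IL-2), and all neighbours overlapped. Exons of Pstk, a gene on the opposite strand, cover 81.3% of its annotated exon length, and the strand setting of the counting was not given in the sources used here. Reads of the pair may therefore not be told apart, and every Ikzf5 value is uncertain. For Ikzf2 and Ikzf4 such shared lengths were 1.24% and 0.617%, and for Ikzf1 and Ikzf3 they were 0.

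**Figure D2:**
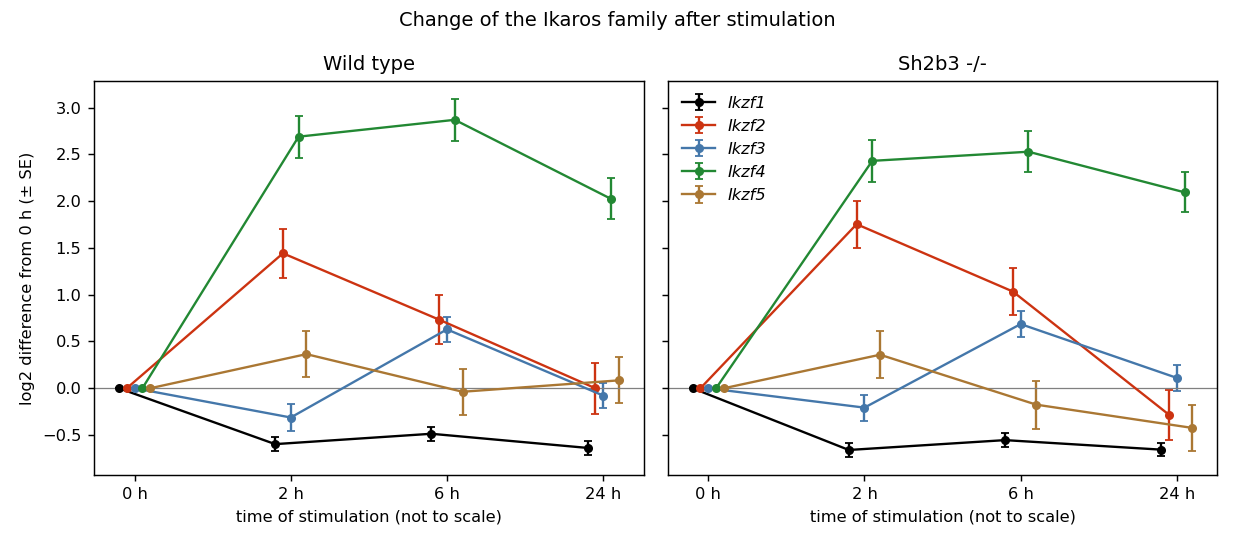
Log2 difference from 0 h (± SE) of each Ikaros family gene at 2, 6 and 24 h of stimulation, in wild-type cells on the left and Sh2b3 -/- cells on the right. Ikzf4 stayed about 2 to 2.9 above its 0 h value, Ikzf2 peaked at 2 h and Ikzf1 lay below its 0 h value throughout.

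Whether the time course differed between genotypes was tested as a genotype-by-time term. No member was called at 2, 6 or 24 h. Among all genes the share called was 0%, 0% and 0.140%, with 1001, 797 and 1894 genes at an unadjusted p under 0.05 in edgeR. The largest term of the family was -0.51 ± 0.32 for Ikzf5 at 24 h (adjusted p = 0.545). For Ikzf4 the terms were -0.26 ± 0.29, -0.34 ± 0.29 and 0.069 ± 0.29, and for Ikzf2 0.31 ± 0.34, 0.30 ± 0.34 and -0.28 ± 0.34, so differences of these sizes between genotypes were not detectable. Without the 3 libraries that stood apart the Ikzf2 terms were 0.45 ± 0.27, 0.40 ± 0.27 and -0.046 ± 0.26, the Ikzf4 terms -0.21 ± 0.28, -0.25 ± 0.27 and 0.22 ± 0.27, and no member was called.

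Loss of Sh2b3 went with a lower Ikzf2 level at 24 h, the only call among the 25 genotype differences of the family. The 5 wild-type libraries read 52.9 and 55.7 CPM in set B and 102.2, 115.9 and 118.5 CPM in set C. The 5 Sh2b3-/- libraries read 25.8 and 29.4 CPM in set B and 68.9, 70.3 and 90.2 CPM in set C. Over both sets the groups overlapped, and within each set every Sh2b3-/- library lay below every wild-type library. The log2 difference was -0.73 ± 0.11 (adjusted p = 0.0156), a 1.66-fold lower level, and 1 of 5 members was called against 0.372% of all genes. Within set B alone it was -0.98 ± 0.15 (adjusted p = 0.0637) and within set C alone -0.56 ± 0.14 (adjusted p = 0.109). In the same sets the unstimulated means were lower in Sh2b3-/- cells too, at 49.6 against 102.5 CPM in set B and 65.2 against 91.4 CPM in set C. A difference particular to 24 h is therefore not shown. The 24 h call was lost without wild-type replicate 1 (-0.72, adjusted p = 0.0538), wild-type replicate 4 (-0.70, adjusted p = 0.0608) or Sh2b3-/- replicate 4 (-0.66, adjusted p = 0.0623).

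Some genes listed as markers of another cell type differed between genotypes as well. Of 7 gamma delta T cell genes, 6 were tested at 24 h and 2 were called, against 0.372% of all genes. Both were lower in Sh2b3-/- cells: Trdc, the delta chain constant segment (-0.87 ± 0.10, adjusted p = 7.56e-04), and Tcrg-C4, a gamma chain constant segment (-1.18 ± 0.23, adjusted p = 0.0401). The summed level of the 7 genes was 222 to 321 CPM in wild-type and 100 to 201 CPM in Sh2b3-/- libraries, most of it Trdc, and Zbtb16 was at 0 in 38 of the 60 libraries. Helios is best known in regulatory T cells. For CD4 and regulatory T cells, 0 of 9 genes tested were called, and the sums of 184 to 325 and 153 to 292 CPM overlapped. These sums are a weak measure of such cells. Cd4 and Foxp3 stayed at or below 1.77 and 3.90 CPM in all 60 libraries, while Capg reached 209 CPM. The wild-type median sum was 58.4 CPM at 0 h and 212 CPM at 24 h. Of 10 memory-phenotype genes 2 were called higher, with sums of 916 to 989 and 946 to 1237 CPM. Their part in the Ikzf2 difference was not tested. In bulk RNA, fewer cells that hold a transcript and less of it per cell cannot be told apart.

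At 0 h no member was called, against 0.633% of all genes, but the Ikzf2 call depended on the setting. Ikzf2 ranged from 33.0 to 83.9 CPM in 10 of the 11 Sh2b3-/- libraries, while replicate 10, one of the libraries standing apart, read 199.96 CPM. Of the 11 Sh2b3-/- libraries 9 lay below the lowest wild-type library (80.8 CPM), and replicate 10 lay above the highest (104.8 CPM). The log2 difference was -0.34 ± 0.22 (adjusted p = 0.640) with that library and -0.58 ± 0.12 (adjusted p = 0.0177) without it. With all libraries it was also called lower by edgeR with no filter on low counts (-0.34 ± 0.060, adjusted p = 2.54e-06) and by limma voom with quality weights (-0.48 ± 0.11, adjusted p = 0.0159), and not by DESeq2 (-0.34 ± 0.21, adjusted p = 0.611). The unfiltered fit gave the same difference as the main fit with replicate 10 still included. Only its SE was smaller, 0.060 against 0.22, so that call adds little. By set it was 0.072 ± 0.38 (adjusted p = 0.995) in set A, which holds replicate 10, -1.05 ± 0.27 (adjusted p = 0.286) in set B and -0.50 ± 0.095 (adjusted p = 0.0130) in set C. The gamma delta sums were 445 to 850 CPM in wild-type and 273 to 731 CPM in Sh2b3-/- libraries, with 1 of 6 genes tested called lower. The sums over CD4 and regulatory T cell genes were 50.6 to 65.1 CPM in wild-type libraries, 52.1 to 72.4 CPM in 10 Sh2b3-/- libraries and 128 CPM in replicate 10. Cd4 and Foxp3 made up little of these sums. The part of either list was not tested.

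At 2 h and 6 h no member was called, against 0.0647% and 0.0306% of all genes, and the ranges of the genotypes overlapped for every member. The Ikzf2 differences were -0.057 ± 0.19 and -0.090 ± 0.20, with 2 SE either side reaching from -0.43 to 0.32 and from -0.49 to 0.31. Without replicate 3 of each time they were -0.15 ± 0.20 and -0.23 ± 0.19, not called. At 24 h with anti-IL-2 no member was called, against 0.350% of all genes. Ikzf2 then read 38.0, 44.6, 46.9 and 53.4 CPM in wild-type and 29.3, 32.3, 35.7 and 46.3 CPM in Sh2b3-/- libraries. Of the 4 Sh2b3-/- libraries 3 lay below all wild-type libraries, and the log2 difference was -0.35 ± 0.13 (adjusted p = 0.395).

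Ikzf1 was the most precisely measured member, and its genotype differences lay between -0.12 ± 0.084 at 6 h and -0.025 ± 0.042 at 0 h, with none called. The Ikzf3 differences lay between -0.077 ± 0.092 at 24 h with anti-IL-2 and 0.15 ± 0.10 at 24 h. Without the library standing apart they were -0.11 ± 0.047 at 0 h and -0.14 ± 0.070 at 2 h, not called. Ikzf4 differed by 0.28 ± 0.19 at 0 h (adjusted p = 0.664), or 0.13 ± 0.18 without replicate 10, and by 0.37 ± 0.17 at 24 h (adjusted p = 0.418). Its 24 h difference followed the library set: the Sh2b3-/- libraries of set C read 18.1, 18.4 and 19.8 CPM against 11.1, 12.2 and 12.3 in wild-type cells, while those of set B read 17.3 and 23.2 against 18.2 and 23.3. The values were 0.66 ± 0.22 (adjusted p = 0.208) in set C and -0.040 ± 0.22 (adjusted p = 0.9998) in set B. Ikzf5 reached -0.58 ± 0.32 at 24 h (adjusted p = 0.506).

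**Figure D3:**
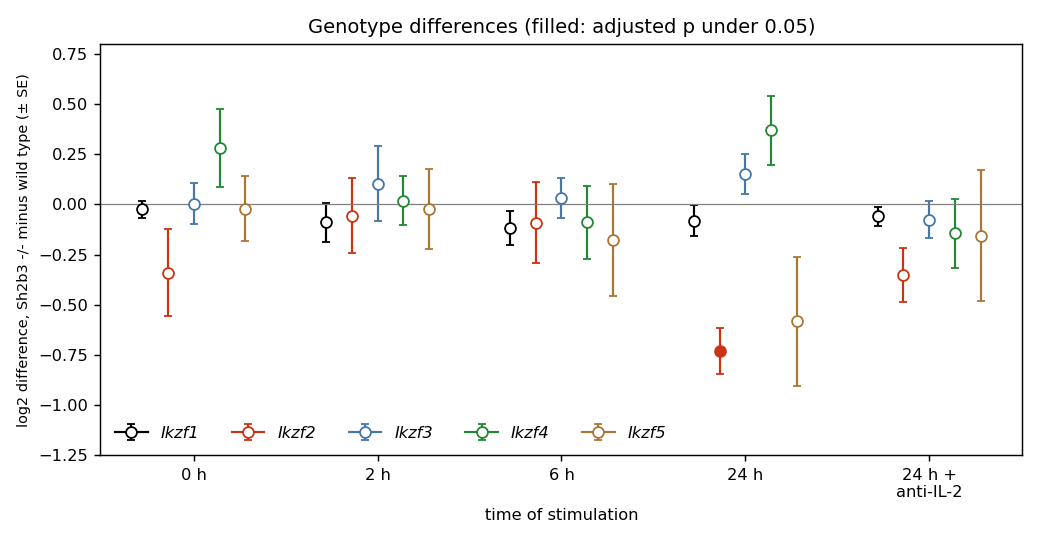
Log2 difference between Sh2b3 -/- and wild-type cells (± SE) for each Ikaros family gene at each time of stimulation, fitted separately for each time. Filled points passed an adjusted p of 0.05 in edgeR, which only Ikzf2 at 24 h did.

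Blocking IL-2 asks which changes need the cytokine that stimulated T cells make. All anti-IL-2 libraries were set D and no other library was, so the antibody and the library set cannot be told apart. As a check of the antibody, Cish, an IL-2 target that dampens cytokine signalling, differed by -2.33 ± 0.42 (adjusted p = 0.00357) in wild-type and -3.46 ± 0.44 (adjusted p = 2.22e-04) in Sh2b3-/- cells. In wild-type cells its size depended on the controls: Cish stood at 7.91 ± 1.06 CPM (SD, n = 4) with the antibody, against 69.7 ± 4.91 (SD, n = 2) in set B and 20.1 ± 5.13 (SD, n = 3) in set C. In Sh2b3-/- cells it stood at 8.40 ± 3.05 CPM (SD, n = 4), against 90.6 ± 34.7 (SD, n = 2) and 93.9 ± 10.1 (SD, n = 3). Of the family, Ikzf4 was called lower in Sh2b3-/- cells, which is 1 of 5 members against 5.63% of all genes, and no member was called in wild-type cells, against 5.93%.

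In Sh2b3-/- cells Ikzf4 stood at 17.3, 18.1, 18.4, 19.8 and 23.2 CPM without the antibody and at 9.76, 10.9, 11.2 and 13.1 CPM with it. The groups did not overlap. The log2 difference was -0.78 ± 0.20 (adjusted p = 0.0209), and it was -0.86 ± 0.20 against the set B controls alone and -0.75 ± 0.18 against the set C controls alone. The call was lost without anti-IL-2 replicate 1 (-0.72, adjusted p = 0.0806), replicate 2 (-0.78, adjusted p = 0.0557) or replicate 4 (-0.77, adjusted p = 0.0674). In wild-type cells Ikzf4 stood at 10.6, 11.9, 12.4 and 14.7 CPM with the antibody, which was below both set B controls and overlapped the set C controls. The difference was -0.31 ± 0.20 (adjusted p = 0.400), -0.74 ± 0.20 (adjusted p = 0.0249) against set B and 0.043 ± 0.18 (adjusted p = 0.913) against set C. The wild-type value was thus set by the choice of control libraries.

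Ikzf2 depended on the controls still more. With the antibody its wild-type level of 38.0 to 53.4 CPM was near the 52.9 and 55.7 CPM of set B and far below the 102.2 to 118.5 CPM of set C. The log2 difference was -0.96 ± 0.34 (adjusted p = 0.113) over both, -0.24 ± 0.15 (adjusted p = 0.436) against set B and -1.32 ± 0.14 (adjusted p = 7.25e-07) against set C. In Sh2b3-/- cells it was -0.67 ± 0.34 (adjusted p = 0.308), 0.37 ± 0.16 (adjusted p = 0.158) against set B and -1.10 ± 0.14 (adjusted p = 1.38e-05) against set C, so its sign turned with the controls. Gamma delta T cell genes were called lower in the anti-IL-2 libraries, 4 of 6 tested in wild-type and 3 of 6 in Sh2b3-/- cells. The shares of all genes called in either direction were 5.93% and 5.63%. The gamma delta sums with the antibody were 119 to 139 and 76.9 to 112 CPM. These genes were not split by control set, and their part was not tested.

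The genotype-by-anti-IL-2 term, which asks whether the antibody acted differently without Sh2b3, was called for no member and for 0% of all genes, with 650 genes at an unadjusted p under 0.05 in edgeR. For Ikzf4 it was -0.47 ± 0.28 (adjusted p = 0.9999), so the call in Sh2b3-/- cells and its absence in wild-type cells is not a shown difference. Ikzf1 differed with the antibody by 0.0049 ± 0.089 in wild-type and 0.018 ± 0.089 in Sh2b3-/- cells. Ikzf3 differed by -0.0083 ± 0.15 and -0.26 ± 0.15, and Ikzf5 by -0.62 ± 0.34 and -0.21 ± 0.34, none called. Against the set C controls alone Ikzf3 was called lower in Sh2b3-/- cells, at -0.46 ± 0.12 (adjusted p = 0.00868).

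**Figure D4:**
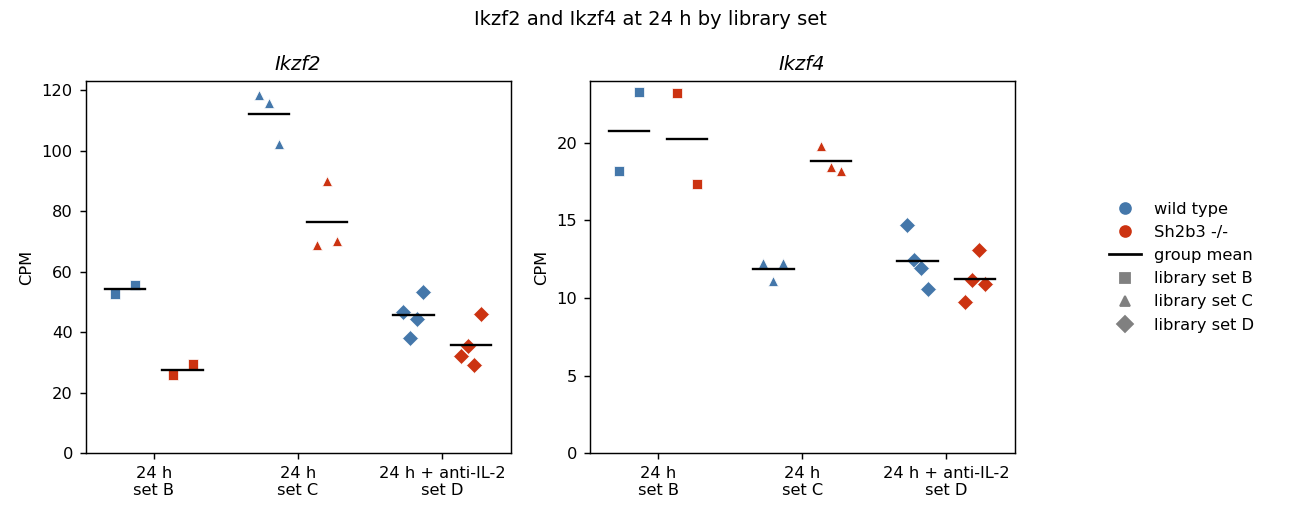
Ikzf2 on the left and Ikzf4 on the right at 24 h, in CPM, by library set and antibody. Points are libraries and black bars are means of each genotype within a set. Ikzf2 was lower in Sh2b3 -/- than in wild-type libraries in sets B and C. For Ikzf4 the genotypes did not overlap in set C and overlapped in set B, and it was called in neither set.

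Genes that work with the Ikaros proteins were described from lists. Counts are to be read against the shares of all genes called in either direction, 49.5% at 2 h and 57.3% at 24 h in wild-type and 50.4% and 60.8% in Sh2b3-/- cells. Of 14 NuRD subunits, 4 rose and 5 fell between 0 and 2 h in wild-type cells, with a list median of -0.01 against -0.082 over all genes tested. The remodelling ATPase Chd4 rose by 0.61 ± 0.075 (adjusted p = 7.10e-10), and its paralogue Chd3 fell by 1.18 ± 0.12 on the log2 scale (adjusted p = 1.07e-12). Mta3, a scaffold subunit, fell by 0.96 (adjusted p = 1.39e-11). By 24 h, 6 had risen and 5 fallen, with Cdk2ap1, a small subunit, up by 1.71 ± 0.13 (adjusted p = 4.83e-17). Sh2b3-/- cells gave 4 risen and 3 fallen at 2 h, and 7 and 4 at 24 h. These counts are no result about the complex.

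Of 9 other corepressors and remodellers, 4 rose and none fell at 2 h in wild-type cells, among them the scaffold Sin3a (0.85 ± 0.060, adjusted p = 8.33e-18) and Eed, a Polycomb subunit (0.52). The list median was 0.25 against -0.082 over all genes, and the count is near the 49.5% of all genes called. At 24 h 5 rose, against 57.3% of all genes called, led by the Polycomb methyltransferase Ezh2 (2.01 ± 0.12, adjusted p = 1.00e-20). Of 13 genes for kinases, phosphatases and the ubiquitin ligase that act on Ikaros proteins, 9 rose and 1 fell at 2 h, against 49.5% of all genes called in either direction, with a list median of 0.39 against -0.082 over all genes. Crbn, the substrate receptor of the ligase, rose by 0.97 ± 0.089 (adjusted p = 9.18e-14), and Ddb1, which links it to the cullin, rose by 0.62. In human cells this ligase degrades Ikaros and Aiolos when drugs of the lenalidomide class bind the receptor. Ppp1ca, a catalytic subunit of the phosphatase that acts on Ikaros, fell by 0.58 on the log2 scale (adjusted p = 7.55e-08). None of the 3 lists had a call in any of the 5 genotype comparisons, where the shares over all genes were those given above.

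Of 21 genes known as targets of Ikaros proteins in lymphocytes, 20 were tested over time, and 7 rose and 7 fell at 2 h in wild-type cells, against 49.5% of all genes called in either direction, with a list median of -0.75 against -0.082. Bcl6, a transcriptional repressor, rose by 2.29 ± 0.16 (adjusted p = 3.95e-17), Il2ra, the IL-2 receptor alpha chain, rose by 4.82 ± 0.33, and Ccnd3, a D-type cyclin, fell by 1.44 on the log2 scale. Between genotypes 1 of 17 was called at 2 h, Il2ra, lower in Sh2b3-/- cells (-0.76 ± 0.12, adjusted p = 0.0442), and 1 of 17 at 24 h, Tbx21, higher in them, which encodes the transcription factor T-bet (1.18 ± 0.21, adjusted p = 0.0241). With anti-IL-2, 6 of 18 fell in wild-type and 7 of 18 in Sh2b3-/- cells, against 5.93% and 5.63% of all genes called in either direction, with medians of -0.95 and -0.92 against 0.017 and 0.0054 over all genes. Among them Bcl2, a survival factor, differed by -0.86 ± 0.16 (adjusted p = 0.00251) and -1.51 ± 0.16 (adjusted p = 7.95e-06). The list shares Bcl2, Cish, Il2ra, Prdm1 and Socs3 with the IL-2 and STAT5 response genes, of which 7 of 12 fell in wild-type and 10 of 12 in Sh2b3-/- cells.

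Across the 10 group means of log2 CPM the members did not follow each other. Pearson's r between members ran from -0.73 (Ikzf1 and Ikzf4) to 0.55 (Ikzf2 and Ikzf5). The genes whose pattern was most like each member's, among 9292 protein-coding genes averaging 4 CPM or more, were Ppcdc (0.994), Chst10 (0.994) and Tmem161b (0.988) for Ikzf1. For Ikzf2 they were Ccng2 (0.992), Sqstm1 (0.990) and Pld3 (0.989). For Ikzf3 they were Nacad (0.965), Morc2a (0.955) and Rab6b (0.954), and for Ikzf4 Hif1a (0.986), Hic1 (0.984) and Smim13 (0.984). Ikzf5 had the weakest partners, Tomm34 (0.912), Tm2d2 (0.910) and mt-Nd4 (0.908). These describe group means that share libraries, scaling and sets, and say nothing of function.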

How the data were processed

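RNA-seq of polyA RNA was deposited by the authors as 1 table of raw counts per gene for 60 libraries. The genome build was GRCm39, per the submitters' processing notes, with STAR 2.7.9a and featureCounts 2.0.1 among the tools named. Gene names and exon lengths were taken from GENCODE M21, an older build, so none of its coordinates are printed; it named 52081 of 55414 identifiers, holding 99.6% of counts. Promoter windows are RefSeq's, on GRCm38.p6. Levels are CPM after TMM scaling over all libraries. Genes were filtered with filterByExpr (minimum count 10) and tested with edgeR 4.0.16 (quasi-likelihood, robust, TMM, Benjamini-Hochberg over all genes tested, called under an adjusted p of 0.05) in R 4.3.3. SE is the size of the log2 difference divided by the root of F. Genotype comparisons used the libraries of their time, with library set as a term at 0 and 24 h. Anti-IL-2 comparisons used the 24 h libraries, without a set term. Time comparisons used all libraries without anti-IL-2, with set as a term. The scripts were tested on simulated data. Alternatives were DESeq2 1.42.0 and its size factors, limma 3.58.1 voom with quality weights, no filter, no set term, single sets, 1 genotype, a single fit and left-out libraries. The 5 genes and all lists were chosen with earlier results of these data known. The text names every member, Sh2b3 and Cish as checks, from each list called genes with the smallest adjusted p, marker genes, and for each member the 3 genes with the highest r. Precision depends on the spread between libraries as well as on the depth of 13987029 to 35476519 counts, with as few as 36 counts per library for Ikzf4 and Ikzf5. Ikzf2 had at least 580 counts in every library. Its SE at 2 h against 0 h in wild-type cells was still larger than that of Ikzf4, at 0.26 against 0.22.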

Additional observations from a re-analysis of the deposited data

Results flagged for a closer look

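In the groups of 4 or 5 libraries, 40 combinations of member and group were examined for a single library whose gap to the nearest other took up an unusually large part of the group's range. Chance gives about 1 in 20, and 3 of the 40 were found. Ikzf3 in Sh2b3-/- replicate 3 at 2 h stood at 314 CPM against 155 to 167 in the other 4. Ikzf3 in wild-type replicate 4 at 2 h stood at 157 CPM against 182 to 186. Ikzf5 in the same wild-type library stood at 6.95 CPM against 4.04 to 4.56.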

How the results depend on the processing

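The counts of members called kept within 1.5 times their reported value in 128 of 147 alternatives that did not leave out single libraries. For Sh2b3-/- against wild type at 0 h the count went from 0 to 1 with no filter on low counts, with limma voom, in set C alone and without Sh2b3-/- replicate 10; the gene was Ikzf2 each time. At 24 h it went from 1 to 0 with no set term, in set B or set C alone and in 1 fit of all 60 libraries. With anti-IL-2 in wild-type cells it went from 0 to 1 with limma voom, in that genotype alone, in the single fit, and against set B or set C controls. In Sh2b3-/- cells it went from 1 to 2 in the single fit and to 3 against set C controls. The single fit counted the anti-IL-2 libraries as set A, because set D holds no others. Its anti-IL-2 values therefore assume that sets D and A do not differ, which cannot be checked. The fits against set B or set C controls alone were added after seeing the data. From 2 to 6 h it went from 2 to 1 with no set term and in set A alone in both genotypes, and in that genotype alone for Sh2b3-/- cells. Leaving out 1 library at a time gave 0 to 1 for the genotype difference at 24 h and for anti-IL-2 in Sh2b3-/- cells, 1 to 2 from 2 to 6 h in wild-type cells and 1 to 3 in Sh2b3-/- cells. Causes were not tested. No called value changed sign, while 96 of 1123 values that were called neither before nor after did. Ikzf3 from 0 to 2 h was also called by DESeq2 (adjusted p = 0.0496), by limma voom (0.00796), with no filter (0.0149) and in wild-type cells alone (0.00654), and in Sh2b3-/- cells by limma voom (0.00808). Over all genes, the calls for Sh2b3-/- against wild type ran over the alternatives from 6 to 477 at 0 h (81 reported), 3 to 230 at 2 h (8), 3 to 36 at 6 h (4), 3 to 944 at 24 h (48) and 10 to 191 with anti-IL-2 (47). Those for anti-IL-2 ran from 384 to 3511 in wild-type (877) and 446 to 2155 in Sh2b3-/- cells (832), and its genotype term from 0 to 16 (0). The genotype-by-time terms ran from 0 to 118 (0), 0 to 123 (0) and 0 to 281 (22), while the time comparisons stayed within 1.5 times. No paired analysis was possible because the labels give the libraries no replicate numbers shared between groups.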
